A study of Mus musculus with 4 samples.

Results

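Pcp2, Pcp4 and Pcp4l1 are 3 genes first known from cerebellar Purkinje cells, and their RNA was followed here in sorted cells of the mouse retina. They were chosen by their measured values: Pcp2 and Pcp4 were among the deepest falls, and Pcp4l1 among the highest rises, of Ezh2-cKO over wild type in cells positive for Cd73. They are 3 of 23021 gene rows in each deposited table, and 3 of 21828 genes once rows of 1 symbol were summed and small RNAs left out. All 3 had an OK status in the 4 libraries, so none was lost to a filter.

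Retinas at postnatal day 12 were dissociated and sorted by flow cytometry with an antibody to Cd73, a surface enzyme encoded by Nt5e that rod photoreceptors and their precursors carry. Cells with Cd73 (Cd73P) and cells without it (Cd73N) were taken from wild type (WT) and from Ezh2-cKO mice, and poly(A) RNA was sequenced. The labels give 1 library for each of the 4 groups and the strain slc:ICR for all of them. In the Ezh2-cKO, floxed Ezh2 was crossed with Dkk3-Cre, which is active in retinal progenitor cells from early in embryonic life, and the controls were normal littermates. Ezh2 is the methyltransferase of Polycomb repressive complex PRC2, which places trimethylation on lysine residues of histone H3. How many retinas were pooled for a library is not given in the sources used here.

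Pcp2 (also called L7) carries GoLoco motifs, short stretches that bind the GDP form of Gi and Go alpha subunits and slow the release of GDP. In retina it is known from ON and rod bipolar cells, the interneurons that receive rod and cone input through the metabotropic glutamate receptor Grm6 and the G protein Go. Pcp4 (PEP-19) is a very small protein with an IQ motif, a stretch that binds calmodulin, the calcium sensor of the cell. It speeds the exchange of calcium at calmodulin and is found in bipolar, amacrine and ganglion cells among others. Pcp4l1 is its close paralogue with an IQ motif of its own. Purkinje cells of the cerebellum have all of these RNAs, but retina contains no such cells.

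The coding sequences are shown because the 3 genes share a name more than a structure, and because Pcp4 and Pcp4l1, which share a motif, had ratios of opposite sign in Cd73P. They come from the GENCODE transcripts of the genome build mm9, and capitals mark the codons of the motif a script found in the translated sequence. For Pcp2, the coding bases around both GoLoco matches of transcript Pcp2-001 are given with flanking bases; for the other genes the whole coding sequence is given.
Pcp2 GoLoco 1: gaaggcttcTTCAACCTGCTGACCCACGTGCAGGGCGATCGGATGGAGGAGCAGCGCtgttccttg
Pcp2 GoLoco 2: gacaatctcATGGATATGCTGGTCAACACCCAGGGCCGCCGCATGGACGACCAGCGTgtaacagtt
Pcp4: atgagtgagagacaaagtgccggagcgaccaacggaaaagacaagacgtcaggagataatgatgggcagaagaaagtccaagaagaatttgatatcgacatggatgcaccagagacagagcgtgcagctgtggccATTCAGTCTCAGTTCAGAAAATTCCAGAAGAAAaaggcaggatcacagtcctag
Pcp4l1: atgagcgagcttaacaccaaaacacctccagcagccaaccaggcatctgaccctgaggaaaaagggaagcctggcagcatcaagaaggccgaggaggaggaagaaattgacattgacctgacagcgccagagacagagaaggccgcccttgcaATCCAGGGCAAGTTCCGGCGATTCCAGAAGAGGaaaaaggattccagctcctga

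The protein of Pcp2-001 has 136 residues, and the GoLoco matches lie at residues 27 to 42 and 67 to 82. Pcp4 encodes 62 residues with the IQ match at 46 to 56, and Pcp4l1 encodes 68 residues with the match at 52 to 62, so in both the motif stands near the C-terminal end. Aligned over their translated coding sequences, Pcp4 and Pcp4l1 were identical at 31 of 62 positions (50%) and within the IQ match at 7 of 11 (63.6%). The longest run of bases that their annotated transcripts share on either strand is 12 bases, against a read length of 36 bases, so no 36-base read fits both exactly.

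On mm9, Pcp2 lies on the minus strand at chr8:3623371-3625545, Pcp4 on the plus strand at chr16:96689213-96747400 and Pcp4l1 on the minus strand at chr1:173103395-173126399. The annotated main transcripts have 4, 3 and 3 exons. Pcp2 is overlapped over 857 bases by the long non-coding RNA gene 2900053A13Rik on the other strand. The library kit did not mark strand, so reads in the shared stretch cannot be assigned to one of them. The non-coding gene was at 12.4, 11.4, 7.08 and 4.73 FPKM in Cd73N WT, Cd73N Ezh2-cKO, Cd73P WT and Cd73P Ezh2-cKO, below Pcp2 in each library. FPKM counts fragments relative to the exon length of the gene and the mapped total of the library, so levels of different genes can be set side by side.

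The labels and libraries were checked before the members. Nt5e, the gene of the sort marker, was at 125 (WT) and 123 FPKM (Ezh2-cKO) in Cd73P cells and below 1 FPKM in Cd73N cells (0.84 and 0.61). Ezh2 was at 5.38 FPKM in Cd73P WT and 3.45 in Cd73P Ezh2-cKO, but at 14.1 FPKM in Cd73N WT and 15.9 in Cd73N Ezh2-cKO, which goes against the label in Cd73N. A gene-level FPKM counts reads of any exon and cannot show loss of a floxed one, and mutant libraries are therefore named by their label. Depth relative to Cd73N WT, inferred from the deposited bounds, was 1 to 1.16, and 10353 to 12744 genes reached 1 FPKM. Ddx3y, a Y-linked gene, was at 10.4 FPKM in Cd73P WT and 0.46 FPKM in Cd73P Ezh2-cKO, so Y-linked RNA differed between these libraries, and the part of sex in the results was not tested. With 1 library per group, no difference below has a replicate check; each standard error (SE) and 95% interval is taken from the deposited bounds and covers counting error only.

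Pcp2 and Pcp4 were RNAs of the Cd73N cells, at a level that few genes reached. Pcp2 was at 653 FPKM in Cd73N WT, 336 in Cd73N labelled Ezh2-cKO, 82.9 in Cd73P WT and 14.1 in Cd73P labelled Ezh2-cKO. Pcp4 was at 695 FPKM in Cd73N WT, 394 in Cd73N labelled Ezh2-cKO, 57.3 in Cd73P WT and 9.70 in Cd73P labelled Ezh2-cKO. Both genes thus had the same order of libraries, with the WT library above the mutant one within each fraction, and both Cd73N libraries above both Cd73P libraries. In bulk libraries such as these, fewer cells of a type and less RNA per cell cannot be told apart. In Cd73N WT they ranked 62 and 49 among 21711 genes by FPKM, and in Cd73P labelled Ezh2-cKO they ranked 4056 and 5449 among 21715.

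Pcp4l1 had another order. Its level was 140 FPKM in Cd73N WT, 107 in Cd73N labelled Ezh2-cKO, 15.0 in Cd73P WT and 113 in Cd73P labelled Ezh2-cKO. A single library, Cd73P WT, stood low, and the other 3 lay close together. Its rank in the Cd73P libraries went from 3940 in WT to 405 in the library labelled Ezh2-cKO. Within the Cd73P fraction the order of the 3 genes turned over, since Pcp4l1 was the lowest of them in WT and the highest in the library labelled Ezh2-cKO.

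**Figure D1:**
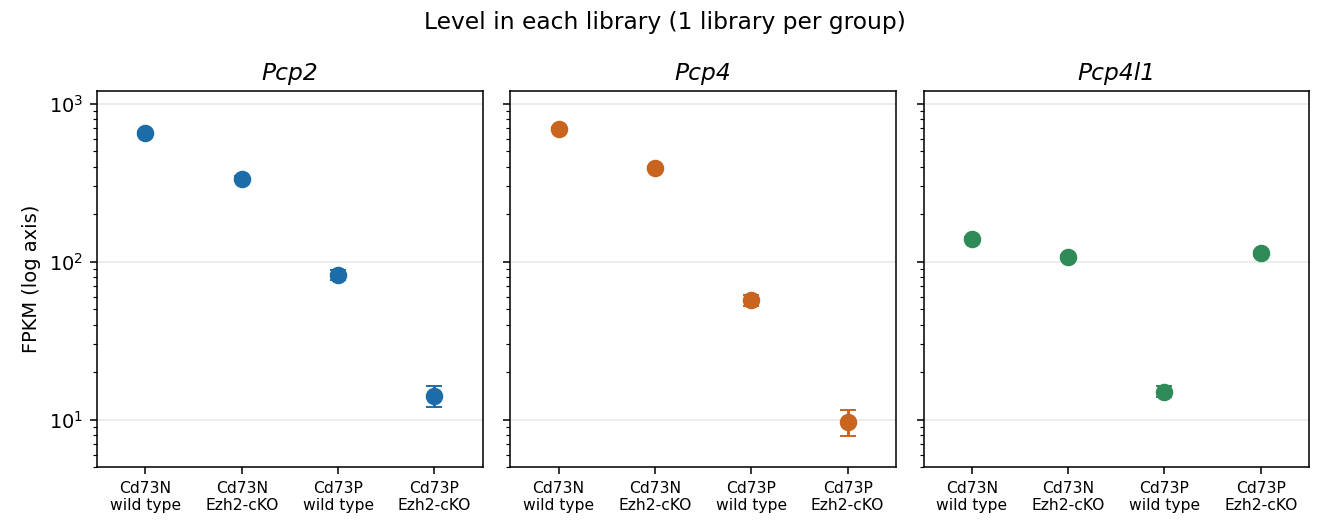
FPKM (log axis) of Pcp2, Pcp4 and Pcp4l1 in each of the 4 libraries, with 1 point per library and bars for the 95% counting interval where it is wider than the point. Pcp2 and Pcp4 step down from Cd73N WT to Cd73P Ezh2-cKO, while Pcp4l1 is low in Cd73P WT alone, at 15.0 FPKM against 107 to 140 FPKM in the other libraries.

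The comparison of genotypes in Cd73P cells is the one that chose the genes, and its values are a description. On the log2(FPKM + 1) scale the ratio of Ezh2-cKO over WT was -2.47 (SE 0.11, 95% interval -2.70 to -2.25) for Pcp2 and -2.45 (SE 0.14, interval -2.71 to -2.18) for Pcp4. In plain FPKM the library labelled Ezh2-cKO held 17.0% and 16.9% of the WT level, so both fell to nearly the same share. Pcp4l1 had a log2 ratio of 2.83 (SE 0.062, interval 2.71 to 2.95), a level 7.50-fold that of WT. At the 1.5-fold threshold of the study, 2.38% of 21703 genes were lower and 2.26% were higher in this comparison; nothing about the 3 genes is read from those shares, since they were picked at its ends.

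Among 5617 single-row genes with at least 10 FPKM in either Cd73P library, Pcp2 and Pcp4 had the 3rd and 4th lowest ratios. Ddx3y lay just below them at -2.97, and Fabp7, a fatty acid binding protein of glia and progenitors, just above them at -2.23 with 99.8 FPKM in WT and 20.5 in the library labelled Ezh2-cKO. Pcp4l1 had the 2nd highest ratio. The gene after it, the transcription factor Mef2c, had a ratio of 2.67, from 0.77 to 10.3 FPKM, so Pcp4l1 started from a level well above that of its neighbour in the order.

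The genotypes were then compared in Cd73N cells, whose libraries had no part in choosing the genes. Pcp2 had a log2 ratio of -0.96 (SE 0.032, interval -1.02 to -0.89) and Pcp4 one of -0.82 (SE 0.025, interval -0.87 to -0.77). Both passed the 1.5-fold threshold downward, as did 1.71% of 21702 genes, and the library labelled Ezh2-cKO held 51.5% of the WT level of Pcp2 and 56.6% of that of Pcp4. Among 6845 genes with at least 10 FPKM they were the 46th and 69th lowest. Pcp4l1 had a ratio of -0.38 (SE 0.028, interval -0.44 to -0.33), 76.5% of WT, which did not reach the threshold. None of the 3 was among the 7.18% of genes that were higher.

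Set side by side, the genotype difference of Pcp2 and Pcp4 had the same sign in both fractions and was deeper in Cd73P, by -1.52 log2 units for Pcp2 (interval -1.75 to -1.28) and -1.63 for Pcp4 (interval -1.90 to -1.36). Pcp4l1 differed in sign between fractions, with a gap of 3.21 (interval 3.08 to 3.34). These intervals cover counting error, and whether the fractions differ beyond the spread of animals was not tested.

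**Figure D2:**
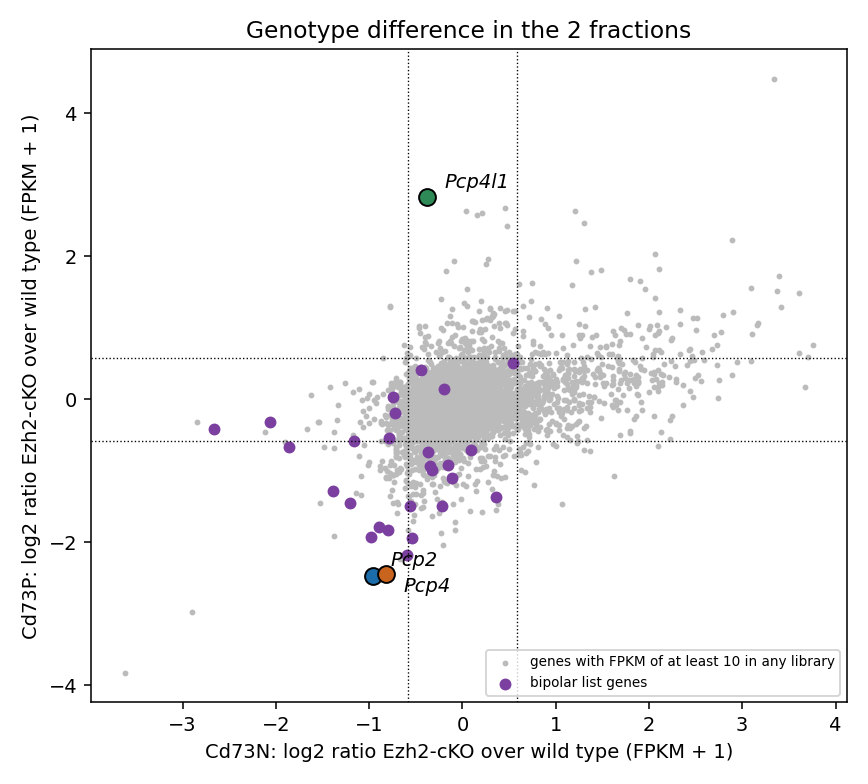
Each point is a gene with at least 10 FPKM in any library, placed by its log2 ratio of Ezh2-cKO over WT in Cd73N (x axis) and in Cd73P (y axis), with dotted lines at 1.5-fold and bipolar cell genes in purple. Pcp2 and Pcp4 lie together at the lower left, at -0.96 and -0.82 by -2.47 and -2.45, and Pcp4l1 lies at the top at -0.38 by 2.83.

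Cd73P was next set against Cd73N within a genotype, which shows where the RNA was found. In WT the log2 ratio of Cd73P over Cd73N was -2.96 (SE 0.054) for Pcp2, -3.58 (SE 0.059) for Pcp4 and -3.14 (SE 0.060) for Pcp4l1. All 3 were lower in Cd73P, as were 27.9% of 21701 genes, while 9.07% were higher. In plain FPKM the Cd73P cells held 12.7%, 8.24% and 10.7% of the Cd73N level, so the 3 genes were alike in WT.

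They parted in the libraries labelled Ezh2-cKO. The ratio of Cd73P over Cd73N there was -4.48 (SE 0.11) for Pcp2 and -5.21 (SE 0.13) for Pcp4, or 4.20% and 2.46% of the Cd73N level. For Pcp4l1 it was 0.07 (SE 0.032, interval 0.01 to 0.14), or 105%, so the RNA was at nearly the same level in both fractions. In this comparison 29.1% of 21700 genes were lower and 8.4% were higher in Cd73P. These fraction ratios share a Cd73P library with the comparison that chose the genes and are not separate evidence of it.

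Bipolar cell genes were set beside the members, since bipolar cells are the retinal home known for Pcp2. Of 15 ON and rod bipolar genes, 14 are in the tables and 13 reached 1 FPKM in either Cd73P library. In Cd73P, 10 of these 13 passed 1.5-fold downward in the mutant library and none passed it upward. Of 10680 genes under the same filter, 484 passed it downward and 460 upward. The median log2 ratio was -1.10 against -0.04 over those 10680 genes. In Cd73N, 4 of 14 passed it downward and none upward, and of 12844 genes under that filter 368 passed it downward and 1491 upward. The median there was -0.35 against -0.04 over all 12844. Of 13 pan and OFF bipolar genes, 6 of 7 that reached 1 FPKM in Cd73P were lower (median -1.29), and 10 of 13 were lower in Cd73N (median -1.17). Among the genes counted lower in Cd73P, Rgs7, Rgs11, Gpr179, Car8, Bhlhe23 and Lhx4 met the 1 FPKM filter through WT alone. They were at 0.45 to 0.97 FPKM in Cd73P labelled Ezh2-cKO, so under this filter they could not have been counted higher.

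Single bipolar genes show how near Pcp2 and Pcp4 lay to them. Gng13, a G protein gamma subunit of ON bipolar cells, was at 326, 216, 35.3 and 7.06 FPKM in Cd73N WT, Cd73N labelled Ezh2-cKO, Cd73P WT and Cd73P labelled Ezh2-cKO, and had a Cd73P log2 ratio of -2.17. Grm6, the glutamate receptor of ON bipolar dendrites, was at 120, 64.3, 5.91 and 1.01 FPKM in the same order, with a ratio of -1.78. Their order of libraries is that of Pcp2 and Pcp4, with smaller ratios in Cd73P on the log2(FPKM + 1) scale. In plain FPKM, Cd73P labelled Ezh2-cKO held 20.0% of the WT level of Gng13 and 17.2% of that of Grm6. A few genes of the lists went another way: Prkca, a protein kinase C of rod bipolar cells, went from 26.8 FPKM in Cd73P WT to 29.7 FPKM in the mutant (ratio 0.14) and had a like level in Cd73N WT (28.5 FPKM), so not every gene of the lists was highest in Cd73N cells.

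Over the 21 bipolar genes with a mean of at least 10 FPKM across the 4 libraries, the median share of the Cd73N level found in Cd73P was 5.68% in WT (range 1.17% to 112%) and 2.31% in the libraries labelled Ezh2-cKO (range 0.57% to 121%), and 18 of the 21 had a lower share in the latter. How many of all genes had a lower share was not counted. Over all genes with at least 1 FPKM in either fraction, the median Cd73P over Cd73N log2 ratio was -0.47 in WT and -0.46 in Ezh2-cKO. A gene can meet the mean of 10 FPKM through Cd73N alone, as Lhx3 did (62.9 FPKM in Cd73N WT, 0.74 in Cd73P WT). Low shares are therefore partly built in. The range of shares of the 21 genes is wide, up to genes at a like level in both fractions, so lying within it says little. Pcp2 and Pcp4 were within it and above the medians in both genotypes. Their shares were lower in Ezh2-cKO too, from 12.7% to 4.20% and from 8.24% to 2.46%. Pcp4l1 went the other way, from 10.7% to 105%. Its share in the libraries labelled Ezh2-cKO was within the range of the bipolar genes too, near Otx2 (84.5% in WT and 100.3% in Ezh2-cKO), Prkca (94.3% and 121%) and Lrit3 (112% and 109%), which had a high share in WT already. Sebox went from 47.3% to 89.2%. The log2 ratios of Ezh2-cKO over WT of the 21 genes had a median of -1.10 and a lowest value of -2.17 in Cd73P, and a median of -0.55 and a lowest value of -1.86 in Cd73N. On this FPKM + 1 scale Pcp2 and Pcp4 (-2.47 and -2.45) were below all 21 in Cd73P, the comparison they were chosen on, and within their range in Cd73N. The scale understates changes of low genes. In plain FPKM, Cd73P labelled Ezh2-cKO held 12.8% of the WT level of Lhx3, below Pcp2 (17.0%) and Pcp4 (16.9%). Lhx3 was near the floor in both Cd73P libraries, at 0.74 FPKM in WT and 0.09 in the library labelled Ezh2-cKO. Trpm1 (17.0%) and Grm6 (17.2%) were close to Pcp2 and Pcp4, so Pcp2 and Pcp4 were not set apart from the lowest bipolar genes in plain FPKM. The part of bipolar cells among the Cd73P cells in these values was not tested.

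**Figure D3:**
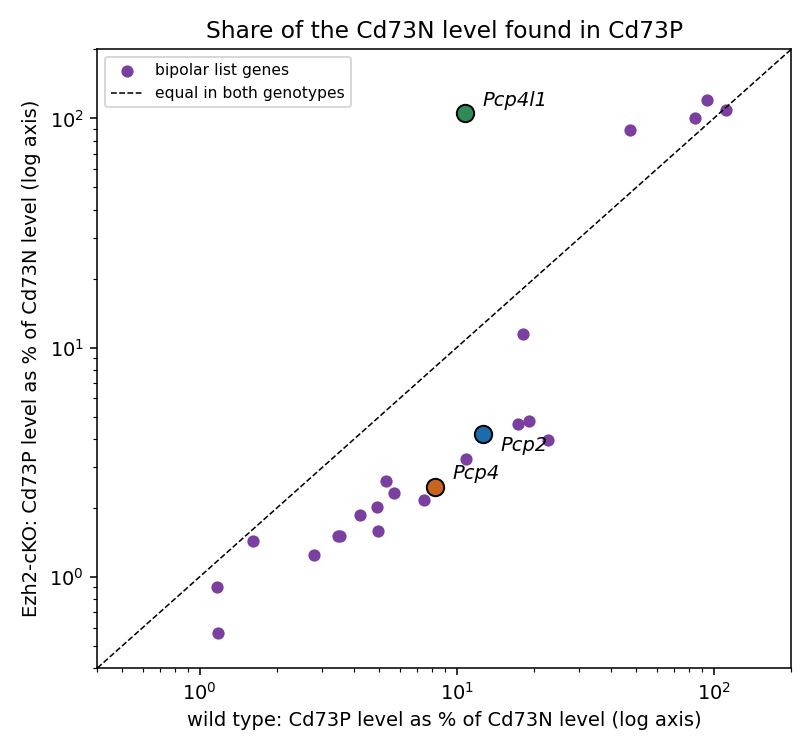
The Cd73P level as a percent of the Cd73N level in WT (x axis) and in Ezh2-cKO (y axis), both on log axes, for Pcp2, Pcp4, Pcp4l1 and 21 bipolar cell genes, with a dashed line where the genotypes are equal. Pcp2 (12.7% and 4.20%) and Pcp4 (8.24% and 2.46%) lie below the line with most bipolar genes, and Pcp4l1 (10.7% and 105%) lies above it.

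Markers of the other cell types a fraction could hold were measured as well. Müller glia genes were higher in both libraries labelled Ezh2-cKO, 11 of 13 in Cd73P (median log2 ratio 0.94, summed FPKM 316 to 529) and 15 of 15 in Cd73N (summed FPKM 1688 to 7074). In Cd73P, Aqp4, Hes1 and Abca8a met the 1 FPKM filter through the library labelled Ezh2-cKO alone. Among all genes that reached 1 FPKM, 460 of 10680 were higher in Cd73P and 1491 of 12844 in Cd73N. Cone genes were lower in Cd73P, 8 of 10 against 484 of those 10680 genes, with a median of -1.03 and a summed FPKM of 289 to 142. In Cd73N, 3 of 11 cone genes were higher and none lower, against 1491 and 368 of those 12844 genes. Their median there was 0.33, with a summed FPKM of 4027 to 5620. Rod genes had a median of 0.34 in Cd73P, with 3 of 17 higher and none lower. Their median in Cd73N was -0.07, with 7 of 17 lower against 368 of those 12844 genes. The median over all genes that reached 1 FPKM was -0.04 in both fractions. Amacrine genes had medians of -0.30 in Cd73P and 0.42 in Cd73N. The Müller glia sum was higher in both fractions, and the Pcp4l1 ratio was 2.83 in Cd73P and -0.38 in Cd73N. The part of any of these cell types in the members' values was not tested.

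Ganglion, horizontal, microglia, vascular endothelial and astrocyte genes had medians of -0.02, -0.25, 0.37, 0.25 and 0.22 in Cd73P and of 0.37, 0.26, 0.56, 0.58 and 0.60 in Cd73N. In Cd73P, 2 of 12, 1 of 6, 6 of 8, 3 of 7 and 3 of 4 genes of these lists reached 1 FPKM, in the same order. Of 10 genes that mark Purkinje cells, 9 are in the tables and 2 reached 1 FPKM in Cd73P. Pvalb was at 0 FPKM in both Cd73P libraries, and Calb1 was at 0.26 and 0.23 FPKM there. In Cd73P WT, Pcp2 and Pcp4 were at 82.9 and 57.3 FPKM while 7 of these 9 genes were below 1 FPKM; Rora, a nuclear receptor that photoreceptors also have, was at 29.5 FPKM. Car8, which Purkinje and bipolar cells have in common, was the gene of this list that was lower in Cd73P, at 3.73 FPKM in WT and 0.84 in the library labelled Ezh2-cKO.

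Genes of the calmodulin and G protein lists were taken next, beginning with calmodulin, the protein that the IQ motif of Pcp4 binds. Whether Pcp4l1 binds calmodulin was not tested. Calm2 was at 223 FPKM in Cd73P WT and 177 in Cd73P labelled Ezh2-cKO (log2 ratio -0.34), and Calm3 at 48.9 and 45.8 FPKM (-0.09). In Cd73N their ratios were -0.48 and -0.32, so both genes stayed within 1.5-fold in both fractions. In Cd73N WT, where Pcp4 was at 695 FPKM, Calm2 was at 476 FPKM and Calm3 at 232 FPKM.

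Among 22 enzymes and inhibitors that calmodulin acts on or that act through it, 16 reached 1 FPKM in Cd73P, and 2 were lower and none higher. Under the same filter, 484 of 10680 genes were lower and 460 higher (median -0.21 against -0.04). The 2 lower genes were Camk2b, a subunit of calmodulin-dependent kinase II, with a ratio of -0.74, and the phosphodiesterase Pde1b, with one of -0.65. In Cd73N 20 reached 1 FPKM and 3 were lower, Pde1a (-1.42), the adenylyl cyclase Adcy8 (-1.13) and Camk1d (-0.59). There 368 of 12844 genes were lower under the same filter, and the list had a median of -0.16 against -0.04. The calcineurin genes Ppp3ca, Ppp3cb, Ppp3cc and Ppp3r1 stayed between the thresholds in both fractions. Of the small IQ-motif regulators beside Pcp4 and Pcp4l1, Nrgn was below 1 FPKM in every library, and Gap43 was below 1 FPKM in Cd73P and at 16.1 and 21.9 FPKM in Cd73N. Pcp4 and Pcp4l1 were thus the members of that list that reached 1 FPKM in the Cd73P cells, with ratios of opposite sign.

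Genes with the GoLoco motif that Pcp2 carries were mixed. Of 7 GoLoco genes, 5 reached 1 FPKM in Cd73P. Gpsm2, which links G protein alpha subunits to the mitotic spindle, was higher, from 21.1 to 55.2 FPKM (log2 ratio 1.35), and so was Gpsm3 (0.69), while Rap1gap was lower with Pcp2 (-0.63). In Cd73N Gpsm2 and Gpsm3 had ratios of 0.02 and 0.04, and Rap1gap was higher (0.97). Pcp2 was the gene of this list with the lowest ratio in Cd73P, the comparison it was chosen on, and also in Cd73N. Of the 5 Gi and Go alpha subunits, Gnao1, the Go subunit that couples Grm6 in ON bipolar cells, was lower in Cd73P, with 21.5 FPKM in WT and a ratio of -1.32, and Gnai1 was lower as well (-1.11). In Cd73N Gnao1 was at 267 and 189 FPKM, a ratio of -0.49 within the threshold, and Gnai2 was higher (0.92).

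**Figure D4:**
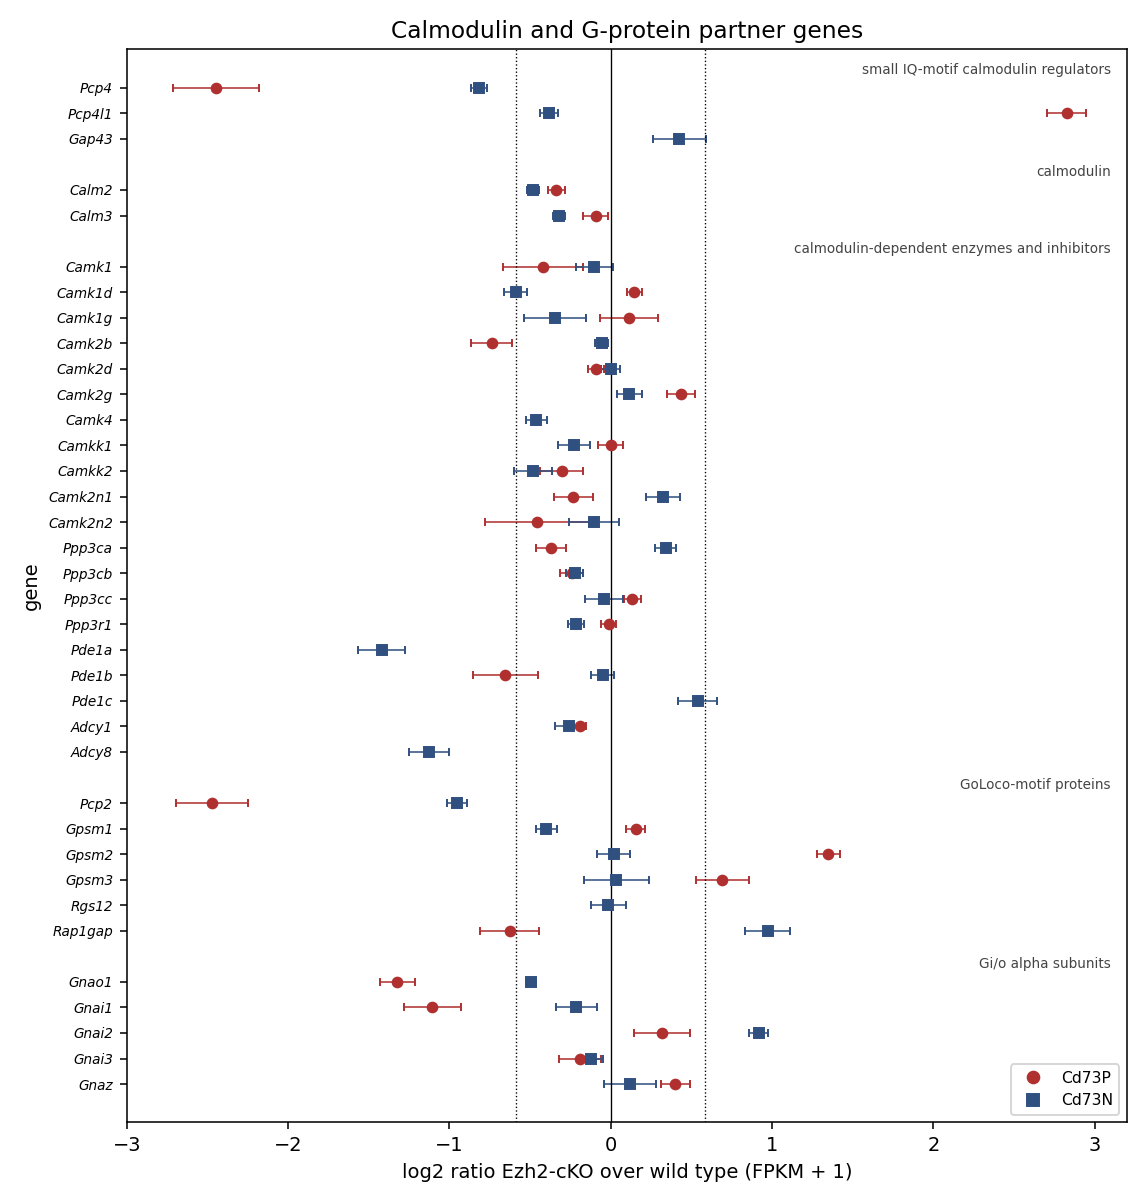
Log2 ratios of Ezh2-cKO over WT on the FPKM + 1 scale for reported genes of the calmodulin and G protein lists with at least 1 FPKM in either library, in Cd73P (circles) and Cd73N (squares), with bars for the 95% counting interval and dotted lines at 1.5-fold. In Cd73P, the comparison the members were chosen on, Pcp4l1 is at 2.83 and Pcp4 and Pcp2 are at -2.45 and -2.47. The other genes shown range from -1.42 to 1.35 over both fractions.

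Genes with the most similar pattern were found by the distance between log2(FPKM + 1) values over the 4 libraries, each centred on its own mean, among 7598 genes with at least 10 FPKM in any library. The nearest to Pcp2 were Gng13 (distance 0.41), Igsf21 (0.64), Pcp4 (0.68), Qpct (0.84) and Olfm1 (0.85). The nearest to Pcp4 were Isl1, a homeobox factor of ON bipolar cells (0.41), Olfm1 (0.42), Gng13 (0.50), Grm6 (0.51) and the calcium binding protein Cabp5 (0.59), and Pcp2 came 6th. So 1 of the 5 nearest genes of Pcp2 and 4 of the 5 of Pcp4 were in the bipolar lists.

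No gene came as close to Pcp4l1. Its nearest were Pde8a, a cAMP phosphodiesterase (0.97), the keratin Krt18 (1.15), Spred3 (1.20), A330050F15Rik (1.27) and Churc1 (1.28), and none of these was in a bipolar list. Krt18 was at 63.0, 73.2, 19.1 and 122 FPKM in Cd73N WT, Cd73N labelled Ezh2-cKO, Cd73P WT and Cd73P labelled Ezh2-cKO, with Cd73P WT low as for Pcp4l1. The distance from Pcp4l1 to Pcp2 was 4.36 and to Pcp4 was 4.71. The pattern includes the libraries that chose the genes, so these lists are a description.

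Neighbouring genes on the chromosome were read for each member. Around Pcp2, 2310057J16Rik was lower in Cd73P (log2 ratio -0.82), while Xab2 (0.05), C330021F23Rik (-0.22) and Stxbp2 (-0.35) stayed within 1.5-fold there. Beyond Pcp4, Dscam, a cell adhesion gene of the immunoglobulin superfamily 66287 bases away, was higher in Cd73P, from 6.42 to 15.1 FPKM (1.12), opposite to Pcp4. Igsf5, which GENCODE draws across Pcp4 on the same strand, was at 0 FPKM in both Cd73P libraries and at most 0.05 FPKM in Cd73N. Near Pcp4l1, 1700009P17Rik was higher in Cd73P, from 2.17 to 7.37 FPKM (1.40), and Sdhc, a subunit of succinate dehydrogenase, was at 68.5 and 68.9 FPKM (0.01). Of the 6 nearest genes of Pcp4l1, 5 thus stayed within 1.5-fold in the fraction where it was higher.

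The sequences before the first start site are shown because Pcp2 and Pcp4 moved together and Pcp4l1 did not. They are the 250 bases upstream of the start in RefSeq on GRCm38.p6, a later build than that of the tables, at chr8:3625548-3625797 (minus strand) for Pcp2, chr16:96467356-96467605 (plus strand) for Pcp4 and chr1:171196269-171196518 (minus strand) for Pcp4l1. Capitals mark matches to AGGTCA, a core that nuclear receptors bind, searched on both strands along with TATAAA and TAATCC.
Pcp2 upstream: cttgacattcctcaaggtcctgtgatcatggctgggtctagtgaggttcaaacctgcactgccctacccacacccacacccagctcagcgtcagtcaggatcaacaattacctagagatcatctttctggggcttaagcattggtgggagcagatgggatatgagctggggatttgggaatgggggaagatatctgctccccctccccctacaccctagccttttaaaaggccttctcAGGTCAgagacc
Pcp4 upstream: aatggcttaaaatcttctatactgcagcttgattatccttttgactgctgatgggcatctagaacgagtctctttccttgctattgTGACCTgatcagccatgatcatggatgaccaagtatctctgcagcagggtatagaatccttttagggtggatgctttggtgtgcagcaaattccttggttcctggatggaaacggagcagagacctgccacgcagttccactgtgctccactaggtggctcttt
Pcp4l1 upstream: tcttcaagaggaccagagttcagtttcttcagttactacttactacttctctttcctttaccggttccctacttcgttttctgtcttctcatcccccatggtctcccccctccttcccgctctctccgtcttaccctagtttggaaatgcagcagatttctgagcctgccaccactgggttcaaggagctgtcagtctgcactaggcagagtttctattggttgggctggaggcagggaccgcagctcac

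Over the window of 300 bases from 250 before to 50 after the start, AGGTCA occurs in 16.3% of 32851 promoters. Counted from the first start, it begins at base -12 in Pcp2 and, as its reverse complement, at base -164 in Pcp4, and the window of Pcp4l1 has no match. TATAAA occurs in 13.6% of promoters, and in Pcp4l1 it begins at base 1 of the transcript. Pcp2 has 4 starts in RefSeq. The window of start 2 holds the AGGTCA of start 1 again, and that of start 4 has another, at base -26 from that start. In the window of start 3, TATAAA begins, as its reverse complement, at base -114. TAATCC, the core read by Otx and Crx factors, occurs in 7.06% of promoters and in none of the windows of the 3 genes. No 2 of these matches overlap, and a match is a description and not a site. The first promoter of Pcp2 was poor in CpG, with 1 CpG in the window and an observed over expected ratio of 0.051, lower than in most promoters (percentile 6.14). Pcp4 (0.34) and Pcp4l1 (0.38) were near the median of all promoters (0.38).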

How the data were processed

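RNA of Cd73N and Cd73P cells from WT and Ezh2-cKO retina at postnatal day 12 was sequenced by the authors as 36-base single-end reads of poly(A) RNA, with 1 library per group. The authors aligned reads to mm9 with TopHat2 2.0.8b (at most 50 hits kept for a read) and computed the deposited FPKM values, their lower and upper bounds and a status with Cufflinks 2.1.1. No scaling between libraries is stated for these FPKM values.

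The 714 rows of 251 repeated symbols were summed by symbol, and small RNAs (730 symbols) were not used. A gene without an OK status in a pair of libraries was left out of that pair. Ratios are log2((FPKM + 1)/(FPKM + 1)), which understates changes of low genes, and a gene was called at 1.5-fold. The width of the deposited bounds, relative to their midpoint, was taken as 4 SE, and 95% intervals use 1.96 SE. In each library, 2674 to 3600 rows had an FPKM above the upper bound listed for it, among them Pcp4 (1.34 to 1.45 times the midpoint of its bounds) and Pcp4l1 (1.11 to 1.14 times). Total read counts are not given, so absolute depth is unknown.

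The members and gene lists were chosen with earlier results of these data known. Genes named were the members, Ezh2, Nt5e, genes of the lists, the genes next to a member in the order of Cd73P ratios, the 5 nearest patterns and the 3 nearest genes on each side; a few genes named by it are not reported here. A list was counted over genes with at least 1 FPKM in either library of a comparison. The set of bipolar genes with a mean of at least 10 FPKM was defined after the data were seen. Alternatives were pseudocounts of 0.1 and 5, median scaling, a 2-fold threshold, a filter at 1 FPKM and, added after the data were seen, the midpoints of the bounds in place of FPKM. Coordinates have 1 added to the listed start: of 21166 symbols on the same chromosome in GENCODE of mm9, 10206 starts were equal after adding 1 and 638 without. Sequences were matched by symbol for 3 of 3 members. The counting was tested on simulated data. Python 3.11.15, pandas 2.3.3, numpy 2.4.6 and Biopython 1.88 were used.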

Additional observations from a re-analysis of the deposited data

Results flagged for a closer look

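The genotype difference of Pcp4l1 had opposite signs in the fractions. Its log2 ratio of Ezh2-cKO over WT was 2.83 in Cd73P and -0.38 in Cd73N, so the Cd73P ratio exceeded the Cd73N ratio by 3.21 (95% counting interval 3.08 to 3.34). With 1 library per group this difference was not tested, and the Cd73P ratio is the one that chose the gene.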

How the results depend on the processing

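Of 48 recomputed member ratios (12 ratios under 4 alternatives), none changed sign, 34 moved by less than their counting error and 14 moved further. All 12 stayed within it with a pseudocount of 0.1 and with the midpoints of the bounds. With a pseudocount of 5, the Ezh2-cKO over WT ratio in Cd73P was -2.20 for Pcp2, -2.08 for Pcp4 and 2.56 for Pcp4l1, the Cd73P over Cd73N ratio of Pcp4l1 in WT was -2.86, and that ratio in Ezh2-cKO was -4.16 for Pcp2 and -4.76 for Pcp4. Median scaling shifted all log2 ratios by 0.04 and 0.06 for the genotype comparisons in Cd73P and Cd73N and by 0.34 and 0.27 for the fractions in WT and Ezh2-cKO. It gave Cd73N genotype ratios of -0.76 for Pcp4 and -0.32 for Pcp4l1, fraction ratios in WT of -2.63 for Pcp2, -3.25 for Pcp4 and -2.82 for Pcp4l1, and in Ezh2-cKO of -4.22, -4.96 and 0.34. Of the 5 genes nearest to Pcp2, Pcp4 and Pcp4l1, 3, 3 and 2 were shared with a pseudocount of 5.

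Gene counts moved more. In Cd73P, 490 genes higher and 517 lower became 1429 and 1713 with a pseudocount of 0.1, 181 and 131 with 5, and 161 and 144 at 2-fold. In Cd73N, 1558 higher and 371 lower became 3254 and 766, 620 and 177, and 643 and 71 under the same settings. Between fractions of WT, 1969 higher and 6055 lower became 1230 and 3976 with a pseudocount of 5 and 1075 and 3832 at 2-fold, and 3035 were higher after median scaling. Between fractions of Ezh2-cKO, 1822 higher and 6316 lower became 1046 and 4155 at 2-fold, and 4070 were lower with a pseudocount of 5. Median scaling made 544 genes higher and 482 lower in Cd73P, so which direction held more genes there depended on the setting. No paired analysis was possible because each group has 1 library.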
